A study of Mus musculus with 36 samples.

Results

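The promoters described here had an H2A.Z peak that overlapped a region of histone H3 trimethylated at lysine 4 (H3K4me3). The peak overlapped no region of the marks H3K27ac and H3K27me3, and these promoters are called unacetylated promoters below. The name refers to that overlap alone, as an H3K27ac region lay within 1000 bp of 115 of them. They were chosen from 20213 consensus peaks of the histone variant H2A.Z in mouse hippocampus, in the authors' deposited table on the mm10 build. A peak was a member when its centre lay within 1000 bp of the start of the nearest coding transcript, when it overlapped an H3K4me3 region of the table, and when it overlapped no H3K27ac and no H3K27me3 region. This gave 1280 peaks at 1276 genes, 10.5% of the 12204 peaks that lay within that distance of a start. The other promoter peaks were 6289 with H3K4me3 and H3K27ac, 2210 with H3K4me3 and H3K27me3, 1668 with all 3 marks, and 757 without H3K4me3. The rule used mark overlap and position and no H2A.Z level, H2A.Z fold or RNA value. The consensus peaks themselves rest on H2A.Z peak calls, which were more frequent at members in naive mice. Members without a called peak numbered 0 in old naive and 9 in young naive mice, against 34 in old conditioned and 162 in young conditioned mice. The labels and the table do not name the tissue or source of the mark regions.

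All mice were C57BL/6J and carried no transgene or deletion according to the labels. The groups were old conditioned mice and old naive mice at 15.5 months, and young conditioned mice and young naive mice at 2.5 months. Conditioned mice were trained for 5 min with 3 foot shocks of 0.5 mA, each lasting 2 s, and their brains were frozen 30 min after training. The whole hippocampus was used for H2A.Z chromatin immunoprecipitation and for RNA sequencing, with 3 libraries per group for each assay. The labels do not say that each library came from a separate animal, so p-values here reflect differences among libraries that may be technical. In bulk tissue, a change in the cells present and a change within each cell cannot be told apart.

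H2A.Z is a variant of histone H2A that replaces it in nucleosomes around transcription start sites. It is put in by the SRCAP and TIP60 complexes and taken out during transcription and chromatin remodelling. H3K4me3 marks most CpG-rich promoters, H3K27ac is added at active promoters and enhancers, and H3K27me3 is the Polycomb mark of silenced developmental genes. In the hippocampus, H2A.Z is known as a chromatin factor whose removal accompanies memory formation.

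Promoter sequences of 6 member genes are shown because the results below turn on them. Spdl1 and Ube2l6 had the largest loss of H2A.Z after conditioning in young mice, Zfp442 had the largest in old mice, and Oip5 lost H2A.Z at both ages. Lepre1 was among the peaks with the highest level, and Top2a was 1 of 2 member genes whose RNA differed with age. Each run is the 250 bases before the RefSeq start of the gene in the GRCm38.p6 assembly, read 5′ to 3′ on the strand of the gene, and capitals mark CCAAT or GGGCGG in either orientation. They lie at chr11:34833642-34833891 on the minus strand for Spdl1, chr2:84798578-84798827 on the plus strand for Ube2l6, and chr2:150451502-150451751 on the minus strand for Zfp442. The others lie at chr2:119618506-119618755 on the minus strand for Oip5, chr4:119232665-119232914 on the plus strand for Lepre1, and chr11:99024190-99024439 on the minus strand for Top2a.
Spdl1: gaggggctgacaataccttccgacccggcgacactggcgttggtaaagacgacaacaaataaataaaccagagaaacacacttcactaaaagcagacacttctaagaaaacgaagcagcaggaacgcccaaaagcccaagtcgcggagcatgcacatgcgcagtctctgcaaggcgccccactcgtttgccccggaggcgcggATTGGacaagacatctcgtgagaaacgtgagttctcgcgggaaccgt
Ube2l6: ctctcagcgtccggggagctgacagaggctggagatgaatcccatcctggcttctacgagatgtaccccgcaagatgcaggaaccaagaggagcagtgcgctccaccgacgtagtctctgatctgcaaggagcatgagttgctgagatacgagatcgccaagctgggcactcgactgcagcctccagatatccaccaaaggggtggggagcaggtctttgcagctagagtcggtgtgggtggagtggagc
Zfp442: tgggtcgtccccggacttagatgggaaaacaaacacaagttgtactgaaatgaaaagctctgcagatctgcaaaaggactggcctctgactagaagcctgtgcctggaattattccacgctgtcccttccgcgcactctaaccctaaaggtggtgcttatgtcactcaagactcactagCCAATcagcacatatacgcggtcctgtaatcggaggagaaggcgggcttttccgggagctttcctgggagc
Oip5: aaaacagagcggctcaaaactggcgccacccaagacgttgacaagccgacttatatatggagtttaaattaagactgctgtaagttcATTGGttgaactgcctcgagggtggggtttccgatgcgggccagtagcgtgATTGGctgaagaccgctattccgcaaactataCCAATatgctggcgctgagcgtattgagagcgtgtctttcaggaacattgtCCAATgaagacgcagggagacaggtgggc
Lepre1: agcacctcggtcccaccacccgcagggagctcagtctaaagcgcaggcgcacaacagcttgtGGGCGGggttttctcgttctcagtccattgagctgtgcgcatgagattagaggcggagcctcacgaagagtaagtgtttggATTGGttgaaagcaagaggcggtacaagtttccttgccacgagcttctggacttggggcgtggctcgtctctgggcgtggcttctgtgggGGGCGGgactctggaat
Top2a: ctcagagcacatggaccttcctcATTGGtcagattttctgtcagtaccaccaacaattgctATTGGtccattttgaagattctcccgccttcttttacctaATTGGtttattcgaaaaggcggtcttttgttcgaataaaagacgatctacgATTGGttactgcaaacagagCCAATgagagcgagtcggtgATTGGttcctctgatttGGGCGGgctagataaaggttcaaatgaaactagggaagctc
The H2A.Z peak covered all 250 bases in the first 5 genes and 85 bases in Top2a. CCAAT in either orientation, the letters bound by the factor NF-Y, stood 6 times in the Top2a sequence, 4 times in Oip5, once each in Spdl1, Zfp442 and Lepre1, and in Ube2l6 not at all. GGGCGG, the GC box bound by Sp1, stood in Lepre1, at 2 places, and in Top2a, at 1 place. A match is a description of the letters and was not tested as a binding site.

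Over the promoter windows of RefSeq, 300 bases each from 250 before to 50 after a start, the unacetylated promoters were CpG-rich. Of the 1253 member peaks whose chromosomes were searched, 1019 (81.3%) matched a reference promoter, and of 6133 acetylated promoter peaks 5110 (83.3%) did. Median GC content was 60.0% in members, 62.3% in acetylated promoters and 52.7% in all 32851 reference promoters searched. The median ratio of observed to chance-level CpG was 0.75 in members, 0.83 in acetylated promoters and 0.38 in all reference promoters. CCAAT stood in 45.5% of members, 39.3% of acetylated promoters and 37.4% of all reference promoters. The ETS letters CCGGAAG stood in 21.1% of members, 24.0% of acetylated promoters and 8.86% of all. The ZBTB33 letters TCTCGCGA stood in 8 members (0.785%), in 181 acetylated promoters (3.54%) and in 0.995% of all. An opposite-strand start of another gene lay within 1000 bp of 15.0% of members and of 22.3% of acetylated promoters. The 269 matched members with lower H2A.Z in young conditioned mice had CCAAT in 52.8% and a median CpG ratio of 0.68. The 750 other matched members had 42.9% and 0.76. The 93 matched members with lower H2A.Z in old conditioned mice had CCAAT in 60.2%, and their median CpG ratio was 0.85, above that of all members. Both strands were read, and the other letters searched were those of the GC box (GGGCGG), NRF1 (GCGCATGC), YY1 (AAGATGGC), the CRE (TGACGTCA), AP-1 (TGANTCA), the E-box (CACGTG) and the TATA box (TATAAA), none of which contains CCAAT, although matches of different motifs may share bases. Promoters with H3K27me3 were left out here because only 75.3% of them matched. These shares are descriptions without a test.

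The peaks at unacetylated promoters were narrow and close to the start. Their median width was 798 bp, against 1017 bp at acetylated promoters and 933 bp at promoters with H3K27me3. The centre lay within 250 bp of the start in 1081 members (84.5%), in 77.6% of acetylated promoters and in 60.4% of promoters with H3K27me3. It lay downstream of the start in 1044 members (81.6%) and in 75.9% of all promoter peaks. H3K4me1, a mark the rule did not use, overlapped 1105 members (86.3%), so most peaks carried 2 methylation states of H3K4 in the table. That share was near the 86.7% of all promoter peaks, with 81.1% in acetylated promoters and 99.4% in promoters with H3K27me3. The nearest H3K27ac region lay at a median of 17232 bp from a member, but within 1000 bp of 115 members and within 200 bp of 51. The nearest H3K27me3 region lay at a median of 55493 bp. The members nearest to the limit of the rule were Il1r2 with its centre at 949 bp, Gtpbp3 at 946 bp and Slc12a8 at -940 bp. The nearest peaks beyond it were Maml3 at 1022 bp, Ccin at -1032 bp and Pkn3 at -1091 bp. In the authors' deposited table, the fold with training in young mice was -1.49 for Il1r2, 0.12 for Gtpbp3 and -0.57 for Slc12a8, and -0.60 for Maml3, -1.80 for Ccin and -0.42 for Pkn3.

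H2A.Z at the unacetylated promoters was lower after conditioning at both ages. In the authors' deposited table the H2A.Z level is 1 log2 value per peak and group, so no spread over libraries can be given. The median level of the members was 5.51 in young conditioned mice, against 6.44 in young naive mice. It was 5.71 in old conditioned mice, against 7.07 in old naive mice. Members were below acetylated promoters in each of the 4 groups and close to promoters with H3K27me3, as the box plot of levels shows. The number of libraries in which the authors called a peak at a member moved in the same direction. No young conditioned library had a called peak at 162 members (12.7%), against 9 members (0.703%) without one in young naive mice. Over all peaks these shares were 9.03% in young conditioned and 9.41% in young naive mice. In the share without a called peak, the other promoter classes moved as the members did. Acetylated promoters had 5.68% in young conditioned and 0.0795% in young naive mice, and promoters with H3K27me3 had 5.29% and 1.54%. In old mice the members without a called peak were 34 (2.66%) in conditioned mice and 0 in naive mice. Over all peaks the old shares were 3.03% in conditioned and 1.93% in naive mice. All 3 libraries had the peak at 729 members (57.0%) in young conditioned mice, against 932 members (72.8%) in young naive mice. Over all peaks the young shares went the other way, with 51.3% in conditioned and 49.9% in naive mice. Acetylated promoters also went the other way, with 77.7% in young conditioned and 75.9% in young naive mice. So did promoters with H3K27me3, with 54.0% and 49.0%, and promoters with all 3 marks, with 82.4% and 55.7%. Promoters without H3K4me3 went as the members did, with 27.5% in young conditioned and 31.2% in young naive mice. In old mice all 3 libraries had it at 663 members (51.8%) in conditioned mice and 712 members (55.6%) in naive mice, and at 47.4% of all peaks in conditioned and 53.9% in naive mice.

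**Figure D1:**
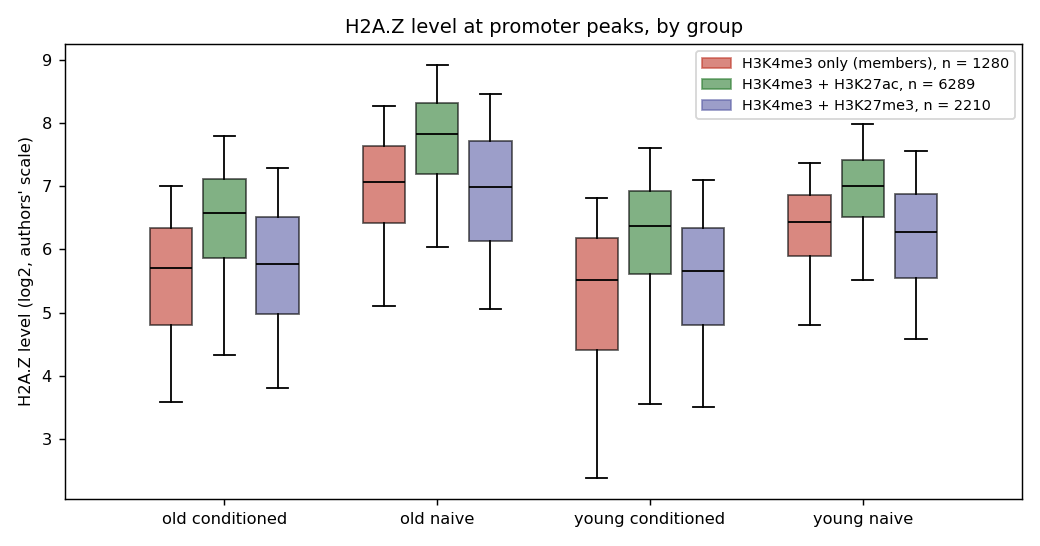
H2A.Z level (log2, the authors' scale, 1 value per peak and group) at promoter peaks in each group. Boxes span the quartiles with the median as a line, whiskers reach the 5th and 95th percentiles, and red boxes are the 1280 unacetylated promoters, with medians of 5.71 in old conditioned, 7.07 in old naive, 5.51 in young conditioned and 6.44 in young naive mice. Levels of old and young groups carry different offsets against the folds, so the boxes are best read within an age.

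The members with the highest level averaged over the groups were Sfi1, Ddx51, Diablo, Sun2 and Lepre1. Sfi1 encodes a centrin-binding protein of the centrosome, and the table places its peak in a region of low mappability, where reads of near-identical copies can be mixed. Ddx51 encodes an RNA helicase of ribosome assembly, and its levels in the authors' deposited table were 7.59 in young conditioned and 7.88 in young naive mice, and 7.57 in old conditioned and 8.79 in old naive mice. Diablo encodes a mitochondrial protein that frees caspases from their inhibitors, and had levels of 7.47 in young conditioned and 7.87 in young naive mice, and 7.59 in old conditioned and 8.81 in old naive mice. Sun2 encodes a protein of the inner nuclear membrane that joins the nucleus to the cytoskeleton. Lepre1 encodes a prolyl hydroxylase of collagen, and its peak was the widest of these at 1653 bp. The lowest levels belonged to Gm21586, Srp54c, Arxes1, Syt11 and Arxes2. Arxes1 and Arxes2 are near-identical copies of 1 gene, Srp54c has close relatives, and Gm21586 stood at the lowest value of the table in all 4 groups, so these levels are uncertain. Syt11, a synaptotagmin of neurons, stood at the lowest value of the table in young conditioned mice, -0.38, against 3.21 in young naive mice.

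In young mice, H2A.Z was lower after conditioning at 331 of the 1280 unacetylated promoters (25.9%) and higher at 0, at the authors' FDR of at most 0.05. Over all 20213 peaks, 13.2% were lower and 0.109% were higher. At an unadjusted p of at most 0.05, 597 members were lower and 0 were higher, and of all peaks 5324 were lower and 122 higher. Acetylated promoters were lower in 16.4% and promoters with H3K27me3 in 9.68%. The median fold (conditioned minus naive, log2) was -0.91 in members, -0.65 in acetylated promoters, -0.58 in promoters with H3K27me3 and -0.57 over all peaks. The fold was below 0 in 1230 members. Every called member was lower by more than 2-fold, and 67 of the 331 by more than 8-fold. Over all peaks the 2660 called lower were likewise all past 2-fold, and 561 of them were past 8-fold. Of the 331, 122 had a called peak in 0 young conditioned libraries, and 70 of these had it in all 3 young naive libraries. The shares of the classes were not tested against each other.

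The largest losses in young mice were at Spdl1, Ube2l6, Lipe, Zfp85 and Ttc38. Spdl1 encodes Spindly, which brings dynein to kinetochores, and its level was -0.14 in young conditioned mice, against 6.45 in young naive mice. Its peak (chr11:34833303-34834130, 5′ UTR) was called in 0 conditioned and 3 naive libraries, and the fold of -6.59 has a p-value listed as 0 in the authors' deposited table. Ube2l6 encodes an enzyme that conjugates ubiquitin and the ubiquitin-like ISG15. Its peak (chr2:84798353-84799303) was exonic. Its level was -0.38, the lowest value of the table, in young conditioned mice, against 5.91 in young naive mice, so the fold of -6.30 (implied standard error 1.16, authors' FDR 8.97e-06) depends on where that lowest value lies. Lipe encodes hormone-sensitive lipase, and its level was 0.08 in young conditioned mice, against 5.80 in young naive mice. The fold of -5.72 at Lipe had an authors' FDR of 1.22e-08. Zfp85 encodes a zinc-finger protein and also stood at -0.38 in young conditioned mice, against 5.14 in young naive mice. Ttc38, a gene of a tetratricopeptide protein, had a level of 1.13 in young conditioned mice, against 6.60 in young naive mice. The peak of all 5 genes was called in 0 young conditioned libraries, in 1 old conditioned library and in 2 old naive libraries. None of the 5 passed the authors' FDR of at most 0.05 in old mice, where their folds lay between -2.45 and -1.08. Implied standard errors here are the ones that the authors' fold and p-value give together under a normal curve.

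In old mice, H2A.Z was lower after conditioning at 121 members (9.45%) and higher at 0, against 10.6% lower and 0.0396% higher over all peaks. At an unadjusted p of at most 0.05, 447 members were lower and 0 higher, and of all peaks 6039 were lower and 40 higher. Acetylated promoters were lower in 18.3% and promoters with H3K27me3 in 9.32%. The median fold was -1.17 in members, -1.05 in acetylated promoters, -0.99 in promoters with H3K27me3 and -0.93 over all peaks. The fold was below 0 in 1269 members. The share of members called was smaller in old than in young mice while the median fold was larger, and the median implied standard error was 0.758 in old and 0.496 in young mice, and the difference between the ages was not tested. The size of the folds in old mice rests on the scale used: taken from the levels, the median difference of members was -1.39 and that of all peaks -1.15.

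The largest losses in old mice were at Zfp442, Il1r2, Lrriq1, Oip5 and Isoc2a. Zfp442 encodes a zinc-finger protein (peak at chr2:150451166-150451849, exonic). Its level was -0.11, the lowest value of the table, in old conditioned mice, against 4.73 in old naive mice, where 1 library had the peak. The fold of -4.62 had an implied standard error of 1.30 and an authors' FDR of 0.0136. Il1r2 encodes a decoy receptor of interleukin 1, and its level was 0.90 in old conditioned mice, against 5.25 in old naive mice. Lrriq1 encodes a protein with leucine-rich repeats, and its level was 1.97 in old conditioned mice, against 6.02 in old naive mice. Oip5 encodes a part of the Mis18 complex, which is needed to load the centromeric histone CENP-A. The Oip5 peak lay at chr2:119617937-119618995 and was exonic. The Oip5 level was 2.83 in old conditioned mice, against 6.64 in old naive mice, with a fold of -3.60 (implied standard error 1.04, authors' FDR 0.0167). Isoc2a encodes a protein with an isochorismatase domain and had a level of 2.36 in old conditioned mice, against 6.16 in old naive mice.

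At both ages H2A.Z was lower at 19 members, which are 5.74% of those lower in young mice and 15.7% of those lower in old mice. These shares lay below the 9.45% of all members lower in old mice and the 25.9% lower in young mice. Thus a call at 1 age did not go with more calls at the other. Over all peaks, the 160 lower at both ages are 6.02% of those lower in young and 7.44% of those lower in old mice, so the members' share of the young calls is near that of all peaks. There too the shares lay below the 10.6% of all peaks lower in old and the 13.2% lower in young mice. The comparisons at the 2 ages share no libraries, and Spearman's correlation of their folds across the 1280 members was 0.51, against 0.59 over all peaks, as a description. The largest young folds among the 19 were at Atp5sl, with -4.98 in young and -3.27 in old mice, and at H2-M3, with -4.48 in young and -3.32 in old mice. Atp5sl encodes a factor of mitochondrial complex assembly, and H2-M3 encodes a class Ib histocompatibility molecule whose family holds close copies, as does H2-Q9. Others among the 19 were Oip5, Cdca8, a part of the chromosomal passenger complex, Plk4, the kinase of centriole duplication, Nek2, a centrosome kinase, and Cenpw, a centromere protein. Dscc1, which helps load the replication clamp, and Diap3, a formin of actin assembly, were there too. These were named after their values were seen, and no list of cell division genes was counted. The Cdca8 level was 3.96 in young conditioned mice, against 6.24 in young naive mice, and 3.52 in old conditioned mice, against 6.50 in old naive mice. The Plk4 level was 6.19 in young conditioned mice, against 7.61 in young naive mice, and 6.11 in old conditioned mice, against 8.34 in old naive mice. Stat3, the transcription factor of cytokine signalling, had the smallest young fold of the 19, -1.16, and -1.40 in old mice.

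**Figure D2:**
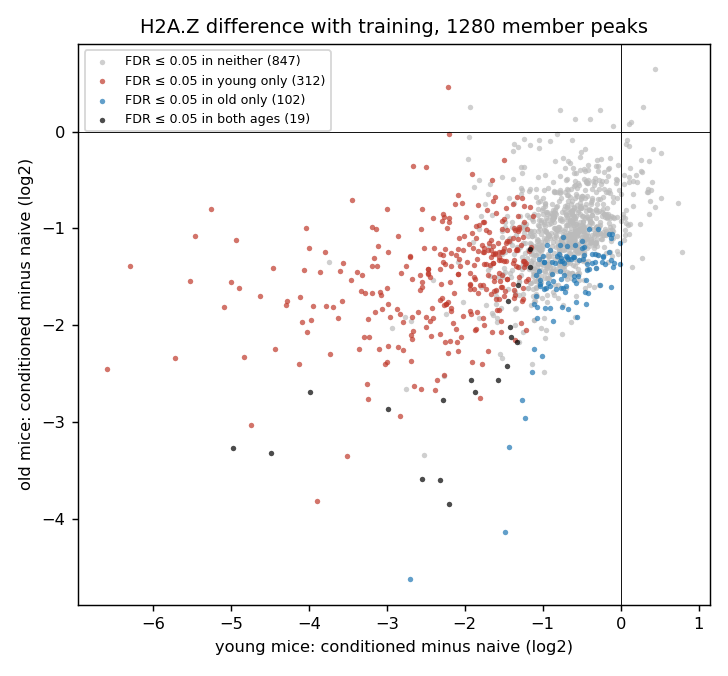
H2A.Z difference with training (log2, conditioned minus naive) of each member peak in young mice (x axis) and in old mice (y axis), coloured by the authors' FDR of at most 0.05. Most of the 1280 points lie below 0 on both axes, 312 are called in young mice alone, 102 in old mice alone and 19 at both ages.

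The share of members called varied with the level of H2A.Z. In young mice it was highest at middle levels and lowest at the top, and in old mice it was higher in each successive bin up to a level of 8. Peaks were binned by their level in naive mice of the other age, so that no library of a comparison set its own bins. In young mice, members were lower in 20% at an old naive level of up to 5, in 31.8% from 5 to 6, in 43.5% from 6 to 7, in 18.04% from 7 to 8 and in 4.35% above 8. Acetylated promoters had 33.3%, 38.5%, 39.2%, 17.7% and 4.84% in the same bins. Promoters with H3K27me3 had 13.4%, 12.03%, 12.2%, 8.29% and 4.68%. In the bins from 6 to 7 and from 7 to 8, which hold most members, the shares of members and acetylated promoters lay closer to each other than to that of promoters with H3K27me3. In old mice, members were lower in 0% at a young naive level of up to 5, in 3.51% from 5 to 6, in 6.14% from 6 to 7 and in 30.3% from 7 to 8. Acetylated promoters had 0.893%, 2.75%, 4.88% and 29.3%, and 55.6% above 8, where only 2 members lay. Level therefore moves with the difference between members and acetylated promoters, and its part in that difference was not tested.

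**Figure D3:**
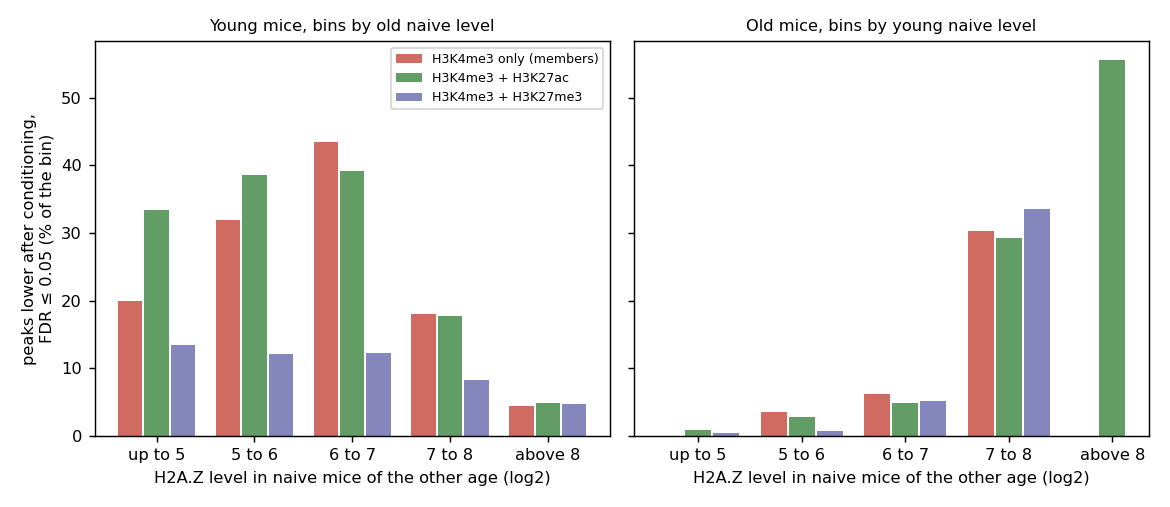
Share of peaks lower after conditioning (%, authors' FDR of at most 0.05) by the H2A.Z level in naive mice of the other age, for unacetylated promoters (red), acetylated promoters (green) and promoters with H3K27me3 (purple). Bins with fewer than 20 peaks are not drawn, and members peak at 43.5% in the 6 to 7 bin in young mice and reach 30.3% in the 7 to 8 bin in old mice.

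Members far from any H3K27ac region were called more often than those near one. In young mice the share was 20% within 1000 bp, 23.3% to 5000 bp, 26.0% to 20000 bp, 26.3% to 50000 bp and 29.6% beyond. In old mice the shares were 4.35%, 4.67%, 7.37%, 12.3% and 14.8%. The median young naive level was 5.99 in the nearest bin and between 6.36 and 6.55 in the others, so level moved with distance, and its part was not tested.

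Age by itself gave no called member. Old naive mice, against young naive mice, had a median fold of 0.30 in members and 0.33 over all peaks. Of all 20213 peaks 0% passed the authors' FDR of at most 0.05, and at an unadjusted p of at most 0.05, 103 members were higher and 0 lower, and of all peaks 2390 were higher and 52 lower. The smallest p-values among members were at Gna12, a G-protein alpha subunit, Lamp1, a protein of the lysosomal membrane, and Foxk1, a forkhead transcription factor. The Gna12 level was 7.85 in old naive mice, against 5.81 in young naive mice, with a fold of 1.71 and an authors' FDR of 0.224. The fold of Lamp1 was 1.40 and that of Foxk1 was 1.31, each with an authors' FDR of 0.243. Old conditioned mice, against young conditioned mice, had a median fold of 0.11 in members and 0.09 over all peaks. There too 0% of all peaks were called, with 9 members higher and 0 lower at an unadjusted p of at most 0.05, and 101 of all peaks higher and 11 lower. The smallest p-values were at Ttc38, Sgta, a co-chaperone, and Ube2l6, with folds of 4.39, 2.48 and 4.198 and an authors' FDR near 1. The Sgta level was 5.62 in old conditioned mice, against 3.01 in young conditioned mice. From the levels, the median difference with age was 0.63 in naive and 0.23 in conditioned mice, against 0.67 and 0.21 over all peaks.

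Of the gene lists, zinc-finger genes had the most promoter peaks. Of 337 promoter peaks of genes named Zfp, Zbtb, Zscan, Zkscan, Prdm or the like, 42 (12.5%) were members, a share near the 10.5% over all promoter peaks, and 226 were acetylated. In young mice, 16 of the 42 (38.1%) were lower after conditioning, with a median fold of -1.01, and 53 of the 226 acetylated ones were lower. Zfp85 had a fold of -5.52, Zfp169 of -3.95, Zfp235 of -3.46 and Zfp114 of -3.09. The Zfp169 level was 2.08 in young conditioned mice, against 6.03 in young naive mice. In old mice 3 of the 42 were lower, namely Zfp442, Zfp593 with a fold of -1.50 and Zbtb34 with -1.24. Many genes of this family bind DNA through C2H2 fingers and silence repeats, and several are close copies, whose reads may be shared.

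Among genes of tRNA charging and modification, 19 of 67 promoter peaks (28.4%) were members, of which 6 were lower in young and 2 in old mice. Trmt10b, a tRNA methyltransferase, had a fold of -3.11 in young mice, and its level was 2.80 in young conditioned mice, against 5.92 in young naive mice. Trnt1, which adds CCA to tRNA ends, had -1.89, and the isoleucine charging enzyme Iars -1.76. Among genes of the mitochondrial ribosome, 12 of 59 peaks (20.3%) were members, 4 lower in young mice with Mrpl14 at -2.47, and 0 in old mice. Among cilium and centrosome genes, 11 of 58 (19.0%) were members, 4 lower in young mice with Cep128 at -2.22 and 1 in old mice, Cep192 at -1.78. Among DNA repair genes, 9 of 48 (18.8%) were members, of which Rad51d, of homologous recombination, had -2.68 and Fancg, of crosslink repair, -2.07 in young mice, and Xpc, the sensor of nucleotide excision repair, -1.61 in old mice. Clustered histone genes had 7 members among 54 peaks, 0 lower in young mice and 1, Hist1h3g, at -2.96 in old mice, and these genes have near-identical copies. Germline genes had 4 members among 30 peaks, with 1, Msh5, lower in young mice at -1.38. For comparison with these counts, 25.9% of all members were lower in young and 9.45% in old mice.

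Genes of neuronal activity and of single cell types were rare. Of 38 promoter peaks of early activity genes 1 was a member, Per1, a clock gene that also responds to stimulation. Its level was 3.75 in young conditioned mice, against 4.63 in young naive mice, with an authors' FDR of 0.483. Of 37 promoter peaks of synapse genes 1 was a member, at Stx1a, a syntaxin of vesicle release. The Stx1a level was 4.35 in young conditioned mice, against 6.44 in young naive mice, and it was lower with a fold of -2.09 and an authors' FDR of 0.000923. Of 18 promoter peaks of genes of H2A.Z and its machinery 1 was a member, at Ruvbl1, an ATPase of the complexes that put H2A.Z in. Its fold was -1.22 with an authors' FDR of 0.0534 in young mice. The oligodendrocyte gene Cnp and the endothelial gene Eng were members, with folds of -0.82 and 0.11 in young mice, and neither passed the authors' FDR. The lists of choroid plexus, ependyma, astrocyte and olfactory or vomeronasal receptor genes had 0 members among 3, 2, 6 and 2 promoter peaks. Small RNA genes had no promoter peak here, where each peak was assigned to the nearest coding transcript, so their list could hold no member.

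RNA libraries held 9410843 to 13350561 counts, and 14405 of 24060 genes passed the filter on low counts. Summed early activity genes reached 1629 to 1891 CPM (counts scaled to library size) in young conditioned libraries, against 1164 to 1613 CPM in young naive libraries, and 1647 to 1924 CPM in old conditioned libraries, against 1238 to 1466 CPM in old naive libraries. Summed choroid plexus markers varied within groups, with 241 to 407 CPM in old conditioned, 422 to 3033 CPM in old naive, 242 to 3634 CPM in young conditioned and 493 to 4845 CPM in young naive libraries. No member gene is among those markers. The neuronal cytoskeleton genes Map1b and Map2 and the CA1 marker Wfs1, all member genes, had mean log2 CPM of 11.42, 10.04 and 6.81.

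Genes at unacetylated promoters were expressed at moderate levels. Of the 1276 member genes 1202 were tested for RNA. Their median level was 4.33 log2 CPM over the 12 libraries, against 5.29 for genes of acetylated promoters, 3.52 for genes of promoters with H3K27me3 and 4.54 over all tested genes. A level above 7 was reached by 91 member genes (7.57%) and by 16.6% of genes of acetylated promoters, while a level under 2 was found in 161 member genes (13.4%) and in 4.86%. CPM is not scaled by gene length, so these levels compare groups of genes only roughly. The median of the member genes lay between 4.29 and 4.39 in each of the 12 libraries. Across the 1202 genes, Spearman's correlation of H2A.Z level and RNA level was 0.33 in old conditioned and 0.20 in old naive mice, and 0.24 in young conditioned and 0.09 in young naive mice. The points of each group share its libraries, and these values are descriptions.

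The members with little RNA were called most often in young mice. The 1202 tested member genes were split by mean RNA level into 4 bins of nearly equal size. In the bin with the lowest RNA, 35.9% were lower after conditioning in young mice, in the next bin 31.0%, in the one above it 19.7% and in the highest 14.6%. Their median young fold was -1.17, -0.97, -0.75 and -0.63. In old mice the shares were 8.97%, 10%, 12% and 5.65%, with median folds of -1.35, -1.22, -1.12 and -0.999. The median old naive H2A.Z level was 6.72 in the lowest bin and between 7.17 and 7.27 in the others, so the level moved with the bins, and its part was not tested. The plot of shares by RNA level shows both ages.

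**Figure D4:**
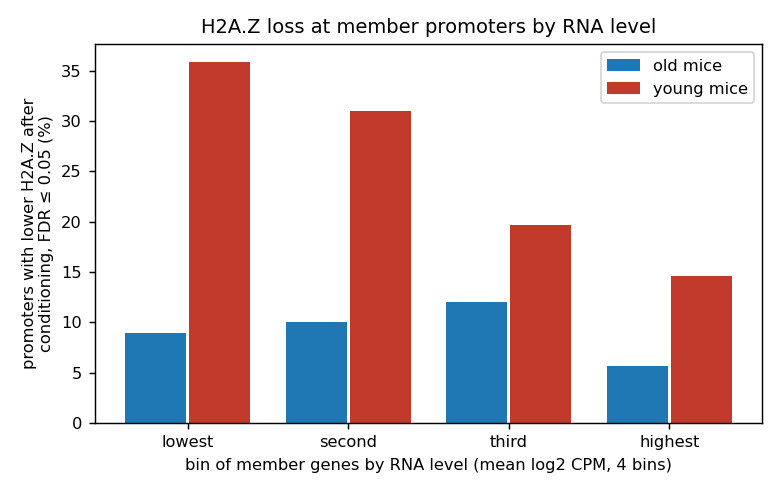
Share of unacetylated promoters with lower H2A.Z after conditioning (%, authors' FDR of at most 0.05) in 4 bins of member genes by mean RNA level (log2 CPM), in old mice (blue) and young mice (red). In young mice the share is 35.9% in the lowest bin and 14.6% in the highest, and in old mice it lies between 5.65% and 12%.

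No RNA change with training was called at the member genes, and few were called over all tested genes. After conditioning, 0 of 1202 member genes passed an adjusted p of 0.05 by edgeR's quasi-likelihood test in young mice, where 0.0278% of all tested genes did, and 0 did in old mice, where 0.0139% of all did. Averaged over the ages, 0 member genes and 0.0764% of all genes passed. DESeq2 called 0 member genes in these 3 comparisons too. With an unadjusted p below 0.05 there were 27 member genes higher and 42 lower in young mice, 33 higher and 24 lower in old mice, and 19 higher and 48 lower on average. Both directions together these were 5.74% of the member genes in young mice, 4.74% in old mice and 5.57% on average, each below the 6.63%, 7.16% and 6.99% over all tested genes. The difference of the training effects between the ages had 0 member genes and 0% of all genes past the threshold, with 52 higher and 21 lower unadjusted (6.07%, against 7.20% over all tested genes), and DESeq2 called 0 members. In young mice the 305 tested genes with lower H2A.Z had a median RNA change of -0.04 log2, against -0.03 in the other 897 member genes. In old mice the 110 tested genes with lower H2A.Z had 0.02, against 0.01 in the other 1092. The median standard error of a gene was 0.115. Spearman's correlation of H2A.Z fold and RNA change across member genes was 0.05 in young and 0.07 in old mice, as a description.

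Single RNA values with training are given for Per1 and Stx1a, the members of the activity and synapse lists, and for Gm4944, the member gene with the smallest p in old mice. None of the 3 passed the adjusted threshold. Per1 had 85.3, 75.1 and 82.6 CPM in young conditioned libraries, against 77.9, 52.5 and 59.8 CPM in young naive libraries. It had 82.9, 77.9 and 75.9 CPM in old conditioned libraries, against 68.0, 64.5 and 80.3 CPM in old naive libraries. The groups overlapped at both ages, and the average difference was 0.26 log2 (SE 0.0825, edgeR adjusted p = 0.711). Without young naive library 79, the difference of Per1 was 0.34 and the adjusted p 0.0427, and over all alternatives that p lay between 0.0427 and 0.999. Stx1a, whose promoter lost H2A.Z in young mice, had 67.6, 64.2 and 62.5 CPM in young conditioned libraries, against 68.5, 68.5 and 68.3 CPM in young naive libraries. It had 78.2, 71.7 and 71.7 CPM in old conditioned libraries, against 64.1, 64.0 and 61.6 CPM in old naive libraries. The Stx1a groups did not overlap at either age and went in opposite directions, with a difference of 0.30 log2 between the training effects (SE 0.0904, edgeR adjusted p = 0.68). Gm4944 had 11.3, 13.02 and 14.4 CPM in old conditioned libraries, against 17.3, 18.2 and 18.3 CPM in old naive libraries, with no overlap and a difference of -0.47 log2 (SE 0.106, edgeR adjusted p = 0.405).

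With age, 2 member genes differed in RNA when the conditions were averaged, both lower in old mice, among 0.375% of all tested genes that passed. They were Top2a and Nfasc. Top2a encodes topoisomerase II alpha, which untangles DNA in dividing cells. It had 0.973, 0.612 and 0.775 CPM in old conditioned and 1.34, 0.734 and 0.359 CPM in old naive libraries, against 2.34, 2.17 and 2.43 CPM in young conditioned and 2.23, 1.76 and 1.82 CPM in young naive libraries. No old library reached a young one, and the change was -1.37 log2 (SE 0.251, edgeR adjusted p = 0.0286). Nfasc encodes neurofascin, an adhesion protein of the axon initial segment and of nodes of Ranvier. It had 320, 328 and 318 CPM in old conditioned and 348, 334 and 334 CPM in old naive libraries, against 341, 363 and 356 CPM in young conditioned and 397, 399 and 411 CPM in young naive libraries. The old and young libraries were separate within each condition, although old naive libraries reached 348 CPM and a young conditioned one lay at 341 CPM. The change was -0.19 log2 (SE 0.0349, edgeR adjusted p = 0.0283). Each call was lost when certain single libraries were left out. Top2a lost it without old conditioned library 61, 63 or 65, old naive library 69, young conditioned library 73, 75 or 77 or young naive library 83, with an adjusted p of 0.0508 to 0.0863. Nfasc lost it without old conditioned library 61 or 63, old naive library 67 or 69, young conditioned library 75 or 77 or young naive library 83, with an adjusted p of 0.0595 to 0.1. Over all alternatives, DESeq2 among them, the adjusted p lay between 0.00705 and 0.0863 for Top2a and between 7.52e-05 and 0.1 for Nfasc. At their promoters the H2A.Z fold with age in naive mice was -0.22 at Top2a and 0.41 at Nfasc, neither called. After conditioning, H2A.Z at the Top2a promoter was 3.62 in young conditioned mice, against 5.86 in young naive mice, a fold of -2.24 with an authors' FDR of 0.00429, and at Nfasc it was 5.87 in young conditioned mice, against 6.03 in young naive mice.

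**Figure D5:**
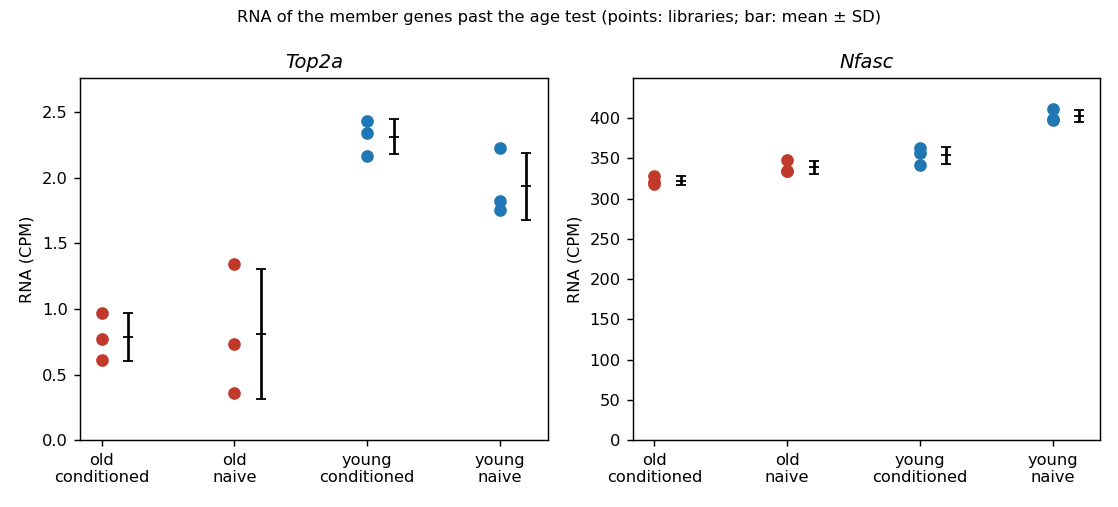
RNA level (CPM) of Top2a and Nfasc in each of the 12 libraries, old groups in red and young groups in blue, with the mean ± SD of each group beside the points (n = 3). Top2a lies between 0.359 and 1.34 CPM in old and between 1.76 and 2.43 CPM in young libraries, and Nfasc between 318 and 348 CPM in old and between 341 and 411 CPM in young libraries.

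Within single conditions age gave no called member gene by edgeR, with 0.0555% of all tested genes called in naive and 0.0347% in conditioned mice. With an unadjusted p below 0.05, old naive mice had 32 member genes higher and 59 lower (7.57%, against 10.3% over all tested genes), and old conditioned mice had 84 higher and 74 lower (13.1%, against 13.4%). DESeq2 called Nfasc lower in old naive mice and, in old conditioned mice, Dgkz, a diacylglycerol kinase, higher and Rfx3, a transcription factor of cilia, lower. Averaged over the conditions, DESeq2 called 4 member genes lower, Top2a, Nfasc, Mest and Dlec1, and 4 higher, among them Cyp2d22, Tprgl and Wbp2. Eng, the endothelial receptor endoglin, had a difference of 0.37 log2 (SE 0.0929, edgeR adjusted p = 0.0887), and 12 endothelial markers, Eng among them, summed to 177 to 202 CPM in old and 154 to 168 CPM in young libraries, and their part in the Eng value was not tested.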

How the data were processed

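H2A.Z ChIP-seq and RNA-seq of mouse hippocampus were used, with 3 libraries per group and assay; the 12 input libraries were not analysed here. The H2A.Z values come from a consensus peak table (mm10): the authors' deposited log2 levels of each group, log2 folds, and p-values and FDRs of their tests, whose scaling the labels do not state. The table has no values per library, so levels have no error, and its T groups were read as conditioned by exclusion. Fold signs were reversed to read conditioned minus naive or old minus young; in comparisons with old mice they differ from the level differences by a constant. The other columns of the authors' deposited table that were used are distances in bp, mark overlaps and the number of libraries with a called peak. The RNA files hold the authors' counts, whole numbers for each gene in 1 library. Per the submitters' processing notes the tools include FastQC, cutadapt and Trim Galore 0.4, TopHat and Bowtie2 2.2.1, HTSeq 0.6.1p2, DiffBind 1.12.2 and MACS2 2.0.10, and R 3.1.0 and edgeR 3.8.6, and the builds are mm10 and mm9, without order or role; strand use in counting is not given, so overlapping and antisense genes cannot be told apart.

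RNA counts were tested with edgeR 4.0.16 in R 4.3.3 (TMM, filterByExpr, 1 quasi-likelihood fit of the 4 groups, Benjamini-Hochberg over 14405 genes at 0.05); DESeq2 1.42.0 was an alternative. Training was tested per age and over both ages, age per condition and over both conditions, and the training effects were compared between ages. Log2 CPM carries a prior count of 2. The RNA procedure was tested on simulated data. Python 3.11.15 with pandas 2.3.3, numpy 2.4.6, scipy 1.17.1 and matplotlib 3.10.9 was used for the rest. Genes matched the RNA files by symbol, and promoter sequences came from RefSeq (GRCm38.p6).

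The promoters and gene lists were chosen with earlier results of these data known. Peaks were named as the 5 highest and lowest folds past the authors' FDR (with none past it, the 3 smallest p-values) and the 5 highest and lowest levels. Genes were drawn from all past the RNA threshold, otherwise the 3 smallest p in each direction, the 5 highest RNA levels and up to 3 members of each list. Those past the threshold are given, and of the rest only a further selection is. Further list members with lower H2A.Z, peaks lower at both ages and genes that DESeq2 called were named after their values were seen. Alternatives were other promoter windows, FDR thresholds, library minimums, scaling, filtering and leaving out each RNA library.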

Additional observations from a re-analysis of the deposited data

How the results depend on the processing

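The fold of a named H2A.Z peak was the same deposited value under each FDR threshold, so its direction could not change and was not put to a test. No named RNA difference changed direction under the alternatives run, and of the medians 2 that lay near 0 did. The median RNA change of member genes with training averaged over ages was -0.0027 log2, and 5.25e-05 without old conditioned library 63. That with age averaged over conditions was 0.0070, and -0.0033 with upper-quartile factors. At a promoter window of 500 or 2000 bp there were 1247 and 1316 members, and peaks called in at least 2 libraries of a group numbered 1274. Chosen after seeing the data, leaving out low-mappability peaks gave 1262 members and leaving out those within 1000 bp of H3K27ac gave 1165. Under these 5 settings 308 to 340 members were lower in young and 116 to 122 in old mice. At an FDR of 0.01 the members lower after conditioning numbered 171 in young and 13 in old mice, and at 0.1 they numbered 430 in young and 269 in old mice; the threshold itself sets these counts. With level differences in place of folds, chosen after seeing the data, no median changed sign.

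For RNA with age averaged over conditions, member genes called numbered 5 lower and 2 higher without the filter on low counts, and 4 lower and 4 higher with DESeq2. DESeq2 called 1 member gene lower in old naive mice, and 1 lower and 1 higher in old conditioned mice. Leaving out 1 library at a time gave 0 to 13 lower and 0 to 6 higher with age; the 13 and 6 arose without young naive library 81, and 4 lower without young naive library 79. It gave 0 to 1 member gene higher with training averaged over ages, the 1 being Per1 without young naive library 79. The cause was not tested. No paired analysis was possible because the RNA libraries carry unique numbers and the H2A.Z table has no values per library. Levels at the lowest value of the table limit the folds taken against them.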
